A study of Mus musculus with 6 samples.

Results

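The genes described here are the Hox, Dlx, Pax, Lhx, Gata, Fox and Sox transcription factors measured in mouse embryonic stem cells whose translation was blocked. The families were chosen with earlier results of these data known. Within them membership went by symbol, as every listed gene with one of these 7 family names and a family number. Sox2, which stem cells need, was left out. The rule found 119 of the 17485 genes in the count tables: 35 Hox, 6 Dlx, 7 Pax, 7 Lhx, 6 Gata, 40 Fox and 18 Sox genes. E14 cells, a pluripotent line of 129/Ola background, had been kept in serum with leukaemia inhibitory factor and were treated 24 h after plating. Cycloheximide, which stalls ribosomes during elongation, was applied at 250 µg/mL in 0.007% ethanol for 3 h (2 libraries) or 6 h (2 libraries). The control cells (2 libraries) had the same ethanol without the drug for 9 h, so that the drug and the hours of exposure cannot be told apart. All 6 libraries came from 1 cell line, and no source says that the libraries of a group came from separate cultures, so the p-values measure only the spread between these libraries, which may be technical.

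Transcription factors of these families bind DNA and set the identity of embryonic lineages: Hox genes give position along the body axis, Dlx, Pax and Lhx genes pattern the head, nervous system and sense organs, and Gata, Fox and Sox genes act in endoderm, blood, neural and many other lineages. In pluripotent cells many of them are held at low levels by Polycomb complexes, which mark their CpG-rich promoters, while some, such as Foxd3, are part of the stem cell state. Cycloheximide is a classic tool in the study of early response genes, because RNA newly made in its presence is made without new protein. Counts measure RNA levels only, and whether a level changed through synthesis or loss was not tested.

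The promoters of 5 of these genes are shown because Sox21, Dlx2, Hoxb4 and Hoxa3 were called higher at both treatment times and Foxd3 was called lower at both. They are RefSeq windows of 300 bases on GRCm38.p6 (mm10), read 5′ to 3′ on the gene's own strand, from 250 bases before the start of transcription to 50 after it. Capitals mark matches, on either strand, to 6 motifs: the GC box with the letters GGGCGG, the box known as CCAAT, the TATA box searched as TATAAA, the AP-1 motif spelled TGACTCA, the cyclic AMP response element (CRE) spelled TGACGTCA, and the E-box spelled CACGTG.
Sox21, chr14:118236981-118237280, minus strand: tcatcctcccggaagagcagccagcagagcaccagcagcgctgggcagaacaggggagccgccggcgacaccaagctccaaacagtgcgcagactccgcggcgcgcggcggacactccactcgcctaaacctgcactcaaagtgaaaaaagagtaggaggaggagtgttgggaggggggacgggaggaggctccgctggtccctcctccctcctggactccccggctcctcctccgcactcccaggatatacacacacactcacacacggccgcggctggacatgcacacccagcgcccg
Dlx2, chr2:71546705-71547004, minus strand: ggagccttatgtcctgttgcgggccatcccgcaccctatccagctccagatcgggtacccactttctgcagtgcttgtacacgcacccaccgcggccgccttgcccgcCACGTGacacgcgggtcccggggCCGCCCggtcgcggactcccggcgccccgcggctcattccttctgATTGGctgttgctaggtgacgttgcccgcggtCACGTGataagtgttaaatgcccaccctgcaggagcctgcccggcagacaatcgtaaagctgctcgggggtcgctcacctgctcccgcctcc
Hoxb4, chr11:96318017-96318316, plus strand: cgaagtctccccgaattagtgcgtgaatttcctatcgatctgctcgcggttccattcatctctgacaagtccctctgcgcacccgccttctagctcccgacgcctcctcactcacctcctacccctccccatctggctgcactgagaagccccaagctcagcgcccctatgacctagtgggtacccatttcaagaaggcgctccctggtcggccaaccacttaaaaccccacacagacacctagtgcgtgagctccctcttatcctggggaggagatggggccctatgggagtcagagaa
Hoxa3, chr6:52213018-52213317, minus strand: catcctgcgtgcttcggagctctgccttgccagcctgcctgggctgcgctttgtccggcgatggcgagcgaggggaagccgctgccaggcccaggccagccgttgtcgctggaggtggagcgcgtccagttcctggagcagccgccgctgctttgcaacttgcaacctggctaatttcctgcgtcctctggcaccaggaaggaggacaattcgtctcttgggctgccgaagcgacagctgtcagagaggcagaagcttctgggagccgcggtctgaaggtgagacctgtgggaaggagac
Foxd3, chr4:99656049-99656348, plus strand: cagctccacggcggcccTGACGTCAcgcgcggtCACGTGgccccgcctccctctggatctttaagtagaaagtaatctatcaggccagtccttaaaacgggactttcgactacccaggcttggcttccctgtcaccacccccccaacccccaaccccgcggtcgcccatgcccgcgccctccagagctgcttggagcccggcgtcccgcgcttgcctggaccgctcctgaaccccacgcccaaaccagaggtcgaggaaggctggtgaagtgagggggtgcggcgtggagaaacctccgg
The Dlx2 window held 1 GC box, 1 CCAAT box and 2 E-boxes, and the Foxd3 window held 1 CRE and 1 E-box, while the Sox21, Hoxb4 and Hoxa3 windows held no match to these 6 motifs. Among 27025 RefSeq promoter windows of this length, 35.9% held a GC box, 37.9% a CCAAT box, 14.2% a TATA box, 5.17% an AP-1 match, 1.88% a CRE and 7.24% an E-box. The G+C content of the 5 windows was 65.7% for Sox21, 66.3% for Dlx2, 58% for Hoxb4, 64% for Hoxa3 and 65.7% for Foxd3, against a median of 52.7% over all windows. Their ratio of observed to expected CpG dinucleotides was 0.69, 0.90, 0.59, 0.66 and 0.79 in the same order, against a median of 0.39. RefSeq windows were matched for 73 of the 119 genes (61.3%), so a comparison of promoters over the whole set was void.

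The libraries held 9385447 to 27351079 counts, and both 6 h libraries were deeper than any other, so detection was compared at equal depth. Mitochondrially encoded genes took 24.7% to 24.9% of control counts, 18.9% to 19.6% at 3 h and 16.6% to 17.4% at 6 h. Markers of embryonic stem cells were present in every library, with none of 10 at 0 and a summed level of 6976 to 7135 CPM, a count divided by the size of its library after TMM scaling (the trimmed mean of M values), in control, 8028 to 8277 at 3 h and 5557 to 5735 at 6 h. Summed markers of other cell types stayed within or below the control range at 6 h for primitive endoderm (13 genes, 733 to 836 CPM in control and 514 to 586 at 6 h), fibroblasts (8 listed genes, 8.37 to 10.9 and 5.37 to 7.92), mesoderm (7 listed genes, 1.83 to 6.30 and 3.89 to 4.98) and neural cells (9 genes, 350 to 401 and 178 to 193). Epiblast-like markers (5 genes) summed to 184 to 234 CPM in control, 227 to 261 at 3 h and 134 to 144 at 6 h. Trophoblast markers (8 listed genes) summed to 59.9 to 72.8 CPM in control and 56.1 to 61.5 at 6 h. Single abundant genes gave much of some sums in control. Tubb3 gave 262 and 267 CPM of the neural sum, Sparc 447 and 464 of primitive endoderm and Thy1 6.30 and 7.82 of fibroblasts. Sox2 gave 2282 and 2602 CPM of the stem cell sum in control, and 3849 and 3958 at 3 h. Such a sum cannot show that the other markers of its list stayed level. Single markers did move: at 6 h edgeR called 4 of 10 stem cell, 3 of 12 tested primitive endoderm, 2 of 4 tested epiblast-like, 1 of 6 tested trophoblast and 1 of 6 tested neural markers lower. It called 2 of 6 trophoblast, 1 of 3 fibroblast, 1 of 4 mesoderm, 1 of 4 epiblast-like and 1 of 6 neural markers higher. At 3 h it called 2 of 10 stem cell and 2 of 4 tested epiblast-like markers higher, and 0 lower. These were Sox2, Klf4, Dusp6 and Otx2. The part of the called markers in the results was not tested. Several genes described here, Sox1, Pax6, Sox17 and Gata4, are themselves on the neural or primitive endoderm list. In these bulk libraries a change in the number of cells of a type and a change in RNA per cell cannot be told apart.

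The control libraries did not bear out a description of the whole set as silent in stem cells, and the genes are therefore called here by their families. At the depth sequenced, 17 of the 119 had at least 100 counts in both controls, 11 of them Fox genes (Foxd3, Foxj3, Foxk1, Foxk2, Foxm1, Foxn2, Foxo1, Foxo4, Foxo6, Foxp1 and Foxp4) and 6 Sox genes (Sox1, Sox7, Sox11, Sox12, Sox13 and Sox15). At the other end, 50 had under 3 counts in both controls and 34 of these had 0 counts in both. No Hox, Dlx, Pax, Lhx or Gata gene reached 100 counts in both controls.

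More of these genes were detected after cycloheximide, at both times and at equal depth. With every library reduced to the 9385447 counts of the smallest, by exact expectation, the number of the 119 genes expected to keep at least 3 counts was 51.8 and 54 in the control libraries, 70.5 and 70.8 at 3 h, and 80.6 and 78.1 at 6 h. The groups did not overlap, and the means were 52.9 ± 1.58 in control, 70.7 ± 0.187 after 3 h and 79.3 ± 1.79 after 6 h (SD over n = 2 libraries each). These are 44.4%, 59.4% and 66.7% of the set, and over all 17485 listed genes the shares were 71.9%, 75.3% and 78.2%. Genes at large were mostly detected in control already, which left them less room to gain. The set was not matched to them by control level, so a larger gain is not shown to be particular to these families. The gain was 17.8 genes at 3 h and 26.4 at 6 h over control, and 8.66 from 3 h to 6 h. An exact two-sided permutation test gave p = 0.33 for each of the 3 comparisons, the smallest value that 2 libraries against 2 allow, so this design cannot reach 0.05 for a single count. Scaling depth by TMM effective library size, which allows for the falling mitochondrial share and other shifts in composition, left gains of 15.1 and 21.7 genes over control.

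By family, the 4 with the larger gains were Fox, Hox, Sox and Dlx. Fox genes, the largest family here, went from a mean of 21.2 detected of 40 in control to 28.5 at 3 h and 32.0 at 6 h, and Sox genes from 12.3 of 18 to 15.6 and 16.0. Hox genes went from 9.38 of 35 to 14.3 and 16.8, and Dlx genes from 0.50 of 6 to 1.70 and 3.15. The other families moved by about 1 gene or less: Pax genes went from 2.49 of 7 to 3.40 and 3.32, Lhx genes from 2.0 of 7 to 2.60 and 2.48, and Gata genes from 4.98 of 6 to 4.62 and 5.64. The differences between families were not tested.

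**Figure D1:**
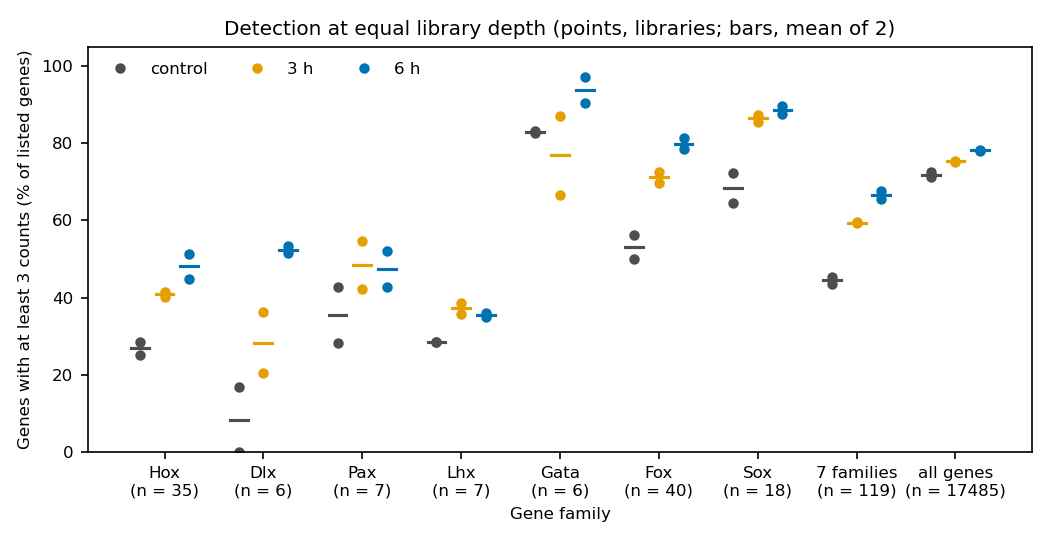
Share of listed genes with at least 3 counts (%, vertical axis) after each library was reduced to the total of the smallest, for each family, for the 7 families together and for all genes; points are libraries, bars the mean of 2 and n the genes listed. For the 7 families the points lie near 44.4% in control, 59.4% at 3 h and 66.7% at 6 h, with no overlap between groups, while all genes move from 71.9% to 78.2%.

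Some genes without a count in control were read in both libraries of a treated group. Of the 34 with 0 counts in both controls, 6 had at least 3 counts in both 3 h libraries (Dlx2, Foxn1, Hoxb4, Hoxd8, Sox8 and Sox9) and 13 in both 6 h libraries (Dlx1, Dlx2, Dlx5, Foxd4, Foxi3, Foxl2, Foxn1, Hoxa2, Hoxb4, Hoxd4, Pax3, Sox10 and Sox9). No gene went from at least 3 counts in both controls to 0 in both 6 h libraries, which were deeper. Hoxc9 did go the other way at 3 h, with 5 and 6 counts in the controls and 0 in both 3 h libraries. It had 11 and 1 at 6 h. Such losses were not counted over all genes. Over all genes, 2543 had 0 in both controls. Of these, 5.94% reached 3 counts in both 3 h libraries and 19.9% in both 6 h libraries, against 17.6% and 38.2% of the 34. These shares are at the depth sequenced, and every listed gene has a count in some library, so genes at 0 in control had to have counts in a treated library. At equal depth, 64 to 71.4 of the 119 genes were expected to have at least 1 count in control, 85.0 to 86.4 at 3 h and 97.5 to 99.3 at 6 h.

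Changes in level were tested with edgeR over all 12755 genes with enough counts, and 64 of the 119 genes were among them: 11 Hox, 1 Dlx, 2 Pax, 2 Lhx, 5 Gata, 27 Fox and 16 Sox. The filter needs 0.621 CPM in at least 2 libraries, and 16 of the 64 had no control library at that level, so they entered through the treated libraries and could hardly be lower after treatment. At 3 h, 5 of the 64 passed an adjusted p under 0.05, 4 higher and 1 lower, where 4.9% of all tested genes did, 3.6% higher and 1.3% lower. At 6 h, 20 passed (31.25% of 64), 12 higher and 8 lower, where 29% of all tested genes did, 14.8% higher and 14.3% lower. From 3 h to 6 h, 5 passed, 1 higher and 4 lower, where 1.64% of all tested genes did, 0.455% higher and 1.18% lower. The share called at 6 h is thus close to that of genes at large. Of the 12 higher calls at 6 h, 6 (Dlx2, Foxa1, Hoxa2, Hoxa3, Hoxb4 and Sox9) were among those 16 genes, as were 3 of the 4 higher calls at 3 h. Of the other 48 genes, 33 had both control libraries at that level. The remaining 15 had only 1, so they too needed a treated library to pass. Gata3 and Hoxb9, both called higher at 6 h, were among these 15. The 48 gave 2 calls at 3 h, 1 in each direction, and 14 at 6 h, 6 higher and 8 lower. That is 4.17% and 29.2% of the 48, against 4.95% and 28.8% of the 12063 tested genes with a control library at that level. The median log2 fold change of the 48 was 0.11 at 3 h and 0.26 at 6 h, and that of the 12063 lay within 0.01 of 0 at both times. Both treatments share the 2 control libraries, and all 5 genes called at 3 h were also called at 6 h. When only library totals were used for scaling, the median of all genes at 6 h moved from 0.04 to 0.40, and 30 of the 64 passed, where 32.7% of all tested genes did. The share of higher calls then went from 60% to 80% among these genes and from 50.8% to 88.2% among all genes.

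**Figure D2:**
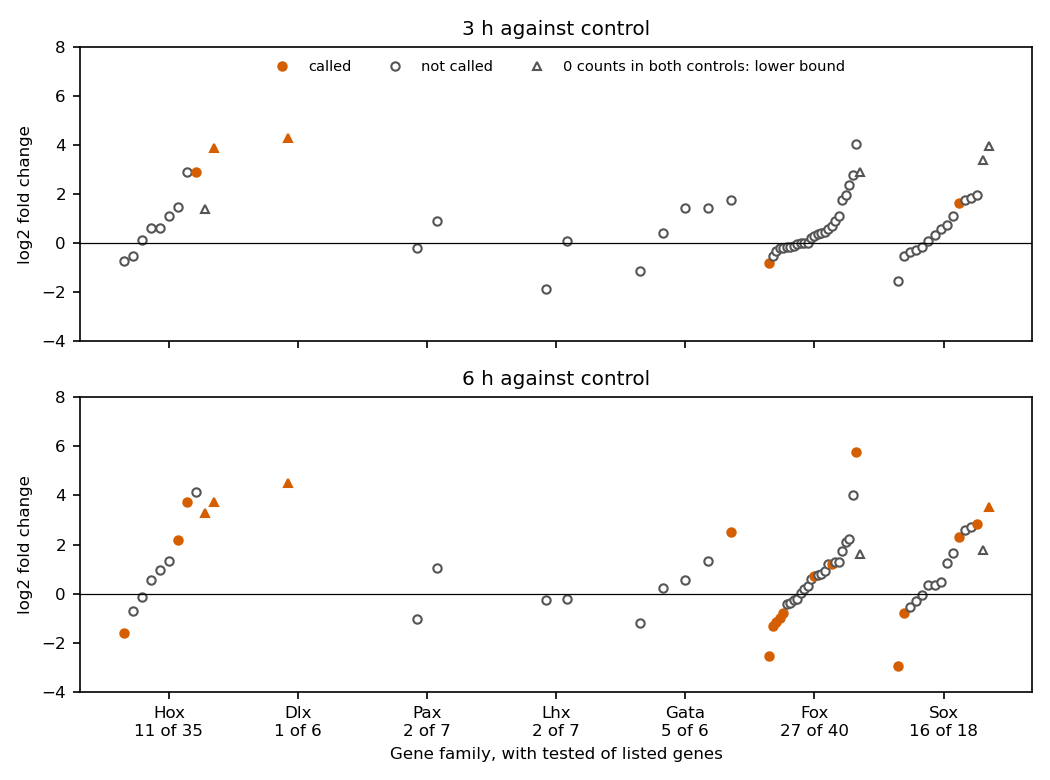
Log2 fold change against control (vertical axis) of each of the 64 tested genes, by family, at 3 h (top) and 6 h (bottom); filled symbols passed an edgeR adjusted p under 0.05, and triangles are lower bounds for genes with 0 counts in both controls. At 3 h, 5 symbols are filled, and at 6 h 20 are filled, 12 above 0 and 8 below.

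Hox genes lie in 4 clusters, and few genes of any cluster were detected in control. At equal depth a mean of 2.98 of 9 listed Hoxa genes, 1.81 of 10 Hoxb genes, 2.85 of 8 Hoxc genes and 1.74 of 8 Hoxd genes had at least 3 counts in control, with 4.36, 3.75, 3.53 and 2.66 at 3 h, and 5.45, 4.78, 4.37 and 2.21 at 6 h. The Hoxd mean was highest at 3 h, where its libraries stood at 1.23 and 4.09, and for Hoxc the second control library, at 4, lay above the second 6 h library, at 3.06. Of 11 tested Hox genes, 2 were called at 3 h, both higher, and 5 at 6 h, 4 higher and 1 lower. The called genes were Hoxa2, Hoxa3, Hoxb4, Hoxb9 and Hoxd13. Hoxa2, Hoxa3 and Hoxb4 had no control library at the filter's limit and could hardly be lower after treatment. Both calls at 3 h (Hoxa3 and Hoxb4) and 3 of the 4 higher calls at 6 h came from them. The direction of the Hox calls was therefore partly fixed in advance. The calls made up 18.2% of the 11 at 3 h and 45.5% at 6 h, beside 4.9% and 29% of all tested genes. These differences were not tested.

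Hoxa3, which patterns the pharyngeal arches, the thymus and the parathyroid, had 0.593 and 0.611 CPM in the controls, 2.33 and 6.70 after 3 h, and 7.16 and 9.20 at 6 h. All 4 treated libraries lay above both controls, and the 3 h libraries differed widely from each other. The log2 fold change was 2.90 ± 0.61 (SE) at 3 h (edgeR adjusted p = 0.0346) and 3.75 ± 0.59 at 6 h (edgeR adjusted p = 0.00335). The 3 h call did not hold when either control library (edgeR adjusted p = 0.0702 and 0.0705), the second 3 h library (1.94, edgeR adjusted p = 0.144) or either 6 h library (adjusted p 0.0630 and 0.0660) was left out. Exons of Hoxa3 (chr6:52169062-52213336, minus strand) overlap those of antisense genes, Hoxaas2 and Hoxaas3 among them. Whether the counting used strand is not given in the sources used here, so reads of these genes cannot be told apart.

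Hoxb4, a regulator of blood stem cells, had 0 counts in both controls, 25 and 42 at 3 h, and 44 and 33 in the deeper 6 h libraries. Against a floor of 3 counts over both controls together, it was at least 14.8-fold higher at 3 h (edgeR adjusted p = 0.0195) and at least 9.87-fold higher at 6 h (edgeR adjusted p = 0.00701). The 3 h call was lost without the first or second 3 h library (adjusted p 0.0755 and 0.111) and without the first or second 6 h library (adjusted p 0.0571 and 0.0543). Hoxa2, which specifies the second pharyngeal arch, had 0 counts in both controls, 12 and 0 at 3 h, and 58 and 45 at 6 h. It was at least 13.2-fold higher at 6 h (edgeR adjusted p = 0.0339), with reads that may be shared with Gm28308, and that call was lost when any control or 6 h library was left out (edgeR adjusted p between 0.0638 and 0.114).

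Hoxb9, of the thoracic Hox groups, had 1.26 and 0.489 CPM in the controls, 1.61 and 1.27 after 3 h, and 3.93 and 4.52 at 6 h. The 6 h libraries stood apart from the other 4, with a log2 fold change of 2.19 ± 0.51 (SE, edgeR adjusted p = 0.0144). It was 3.09 without the first control library, and the call was lost without the first or second 6 h library (adjusted p 0.0664 and 0.101). Hoxd13, a gene of digits and the posterior body, was the only called Hox gene that was lower at 6 h, with 2.52 and 6.72 CPM in the controls, 2.65 and 2.83 after 3 h, and 1.39 and 1.57 at 6 h. Its log2 fold change was -1.61 ± 0.51 (SE, edgeR adjusted p = 0.0439), and the second control library set most of it, since without that library it was -0.76 (edgeR adjusted p = 0.291). The call was also lost without any one of the 3 h or 6 h libraries (edgeR adjusted p between 0.0689 and 0.179). Hoxb1, a gene of the fourth hindbrain segment, did not pass the filter. It had 0.370 and 0 CPM in the controls, 0.0646 and 0.0578 after 3 h, and 0.264 and 0.345 at 6 h. Its control and 6 h libraries overlapped.

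Dlx genes pattern the forebrain and the jaw. At the depth sequenced, 0 of 6 had at least 3 counts in both control libraries and 5 of 6 in both 6 h libraries. Over all 17485 genes, 12005 had that many in both controls and 14127 in both 6 h libraries. The 6 h libraries were deeper, and at equal depth the mean was 0.50 of 6 in control and 3.15 at 6 h. For Dlx3 and Dlx4, which are among the 5, the control and 6 h libraries overlapped in CPM. Dlx2, needed for forebrain interneurons, had 0 counts in both controls, 56 and 32 at 3 h, and 124 and 52 at 6 h. It was at least 19.4-fold higher at 3 h (edgeR adjusted p = 0.0202) and at least 22.6-fold higher at 6 h (edgeR adjusted p = 0.00445), and the log2 difference of 6 h from 3 h was 0.16 ± 0.55 (SE, edgeR adjusted p = 0.907). The 3 h call was lost without the first or second 3 h library (adjusted p 0.0896 and 0.0553). The 6 h libraries alone gave bounds of 29.6-fold and 14.4-fold. Its neighbour Dlx1 had 0 counts in both controls, 1 and 0 at 3 h, and 17 and 3 at 6 h, and Dlx5, a gene of the jaw and bone, had 0 counts in all 4 control and 3 h libraries and 11 and 13 at 6 h. Dlx1 and Dlx5 did not pass the filter on low counts, and without the filter neither was called.

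Pax and Lhx genes gave no call. Of 2 tested in each family, 0 passed in any of the 3 comparisons with edgeR, and limma-voom and DESeq2 also called 0, while at an unadjusted p under 0.05 there was 1 Lhx gene at 3 h and 1 Pax gene at 6 h. Pax6, a selector of the eye and forebrain, had 1.26 and 1.59 CPM in the controls, 2.71 and 2.60 after 3 h, and 2.94 and 2.91 at 6 h. All treated libraries lay above control, and the log2 fold change of 1.05 ± 0.41 (SE) at 6 h did not pass (edgeR adjusted p = 0.0881). Lhx6, a gene of cortical interneurons and the Lhx gene with the highest mean CPM, had 12 and 11 counts in the controls, 13 and 26 after 3 h, and 32 and 22 in the deeper 6 h libraries, a log2 fold change of -0.21 ± 0.64 (SE) at 6 h (edgeR adjusted p = 0.838). Pax3, a gene of neural crest and muscle, had 0 counts in both controls, 11 and 1 at 3 h, and 4 and 5 at 6 h. Lhx5, a forebrain gene, had 1 and 0 counts in the controls, 15 and 3 after 3 h, and 7 and 4 at 6 h, and neither passed the filter.

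Gata factors, zinc-finger proteins of blood, endoderm and trophoblast, were mostly detected in control already. Gata3, a factor of trophoblast and T cells, was the only one called, with 1.56 and 0.611 CPM in the controls, 3.49 and 2.77 after 3 h, and 6.14 and 7.13 at 6 h. The 3 groups did not overlap, and the log2 fold change at 6 h was 2.52 ± 0.44 (SE, edgeR adjusted p = 0.00479), or 3.42 without the first control library. At 3 h it was 1.44 ± 0.45 (edgeR adjusted p = 0.0984). Gata2, a factor of blood stem cells with the highest mean CPM of the family, had 208 counts in 1 control library and 19 in the other, against 165 to 320 in the treated libraries, with a log2 fold change of 0.21 ± 0.59 (SE) at 6 h (edgeR adjusted p = 0.817).

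Gata4 and Gata6, which drive primitive endoderm, had their highest mean CPM at 3 h, and neither was called. Gata4 had 0.593 and 3.54 CPM in the controls, 5.75 and 7.11 after 3 h, and 4.26 and 5.29 at 6 h, and its log2 fold changes of 1.76 ± 0.62 (SE) at 3 h and 1.33 ± 0.62 at 6 h did not pass (edgeR adjusted p = 0.127 and 0.139). Gata6 had 2.37 and 0.367 CPM in the controls, 3.36 and 4.68 after 3 h, and 2.01 and 2.38 at 6 h, with log2 fold changes of 1.45 ± 0.64 (SE) and 0.57 ± 0.64 (edgeR adjusted p = 0.205 and 0.536). The 2 control libraries differed by over 3-fold for Gata2, Gata4 and Gata6. Over the whole set, 8 of the 39 genes with at least 20 control counts differed that much between control libraries, as did 10 of 58 at 3 h and 8 of 75 at 6 h.

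Fox genes were called in both directions. Of 27 tested, 1 was called at 3 h, which was lower, and 8 at 6 h, 3 higher and 5 lower (18.5% lower, where 14.3% of all tested genes were). Each of the 5 that were lower was among the 11 Fox genes with at least 100 counts in both controls. Of the 3 that were higher only Foxp1 was, Foxh1 and Foxa1 having under 100 counts in each. A gene with few control counts could hardly be called lower, and 7 of the 27 had no control library at the filter's limit. This contrast was therefore partly fixed in advance.

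Foxd3, which maintains pluripotent cells and later marks the neural crest, was called lower in all 3 comparisons. It had 55.9 and 57.8 CPM in the controls, 34.2 and 30.7 after 3 h, and 10.3 and 8.85 at 6 h. The groups were clearly apart, with log2 fold changes of -0.81 ± 0.15 (SE) at 3 h (edgeR adjusted p = 0.0228), -2.57 ± 0.16 at 6 h (edgeR adjusted p = 5.13e-05) and -1.76 ± 0.15 from 3 h to 6 h (edgeR adjusted p = 0.00186). Leaving out the first or second 3 h library ended the 3 h call (adjusted p 0.104 and 0.162), with log2 fold changes of -0.89 and -0.73.

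Foxp4, a forkhead repressor of lung and gut development, was lower at 6 h, going from 57.5 and 74.4 CPM in control and 53.9 and 59.9 at 3 h to 27.4 and 25.8 at 6 h. Its log2 fold change was -0.21 ± 0.16 (SE) at 3 h (edgeR adjusted p = 0.448), -1.31 ± 0.16 at 6 h (edgeR adjusted p = 0.00126) and -1.10 ± 0.16 from 3 h to 6 h (edgeR adjusted p = 0.0173). Foxk1, a repressor linked to autophagy and metabolism, had 17.6 and 14.8 CPM in the controls, 16.5 and 15.9 after 3 h, and 8.94 and 7.17 at 6 h. Its log2 fold change was -1.01 ± 0.20 (SE) both against control (edgeR adjusted p = 0.00807) and against 3 h (edgeR adjusted p = 0.0489). For Foxp4 and Foxk1 the call between 3 h and 6 h was lost without any one of the 3 h or 6 h libraries (edgeR adjusted p from 0.101 to 0.198 for Foxp4 and from 0.151 to 0.361 for Foxk1), and the Foxk1 call against control was lost without the second 6 h library (adjusted p 0.0705).

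The Foxo genes, effectors of insulin signalling, gave 2 calls, both lower at 6 h. Foxo6 had 30.8 and 36.7 CPM in the controls, 34.6 and 24.9 after 3 h, and 14.1 and 16.3 at 6 h, a log2 fold change of -1.15 ± 0.20 (SE) at 6 h (edgeR adjusted p = 0.00485). Foxo4 had 19.6 and 21.1 CPM in the controls, 13.5 and 15.0 after 3 h, and 11.5 and 11.9 at 6 h, which gave a log2 fold change of -0.80 ± 0.17 (SE) at 6 h (edgeR adjusted p = 0.0106), and no treated library reached the control range. The Foxo4 call was lost without the first or second 6 h library (adjusted p 0.0698 and 0.0681), and with library totals alone, where it was -0.44 (edgeR adjusted p = 0.083). Foxo1 stood at 33.0 and 33.1 CPM in control and 40.6 and 41.6 at 6 h, and its log2 fold change of 0.31 ± 0.17 (SE) did not pass (edgeR adjusted p = 0.211). Foxo3 did not pass the filter on low counts. It had 0.296 and 0.122 CPM in the controls, 0.0646 and 0.289 after 3 h, and 0.528 and 0.805 at 6 h.

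The 3 Fox genes called higher at 6 h were Foxa1, Foxh1 and Foxp1. Foxa1, a factor that opens chromatin in endoderm and gland tissues, had 1 and 0 counts in the controls, 9 and 19 after 3 h, and 80 and 79 at 6 h. Each treated group lay above control and 6 h above 3 h. With 1 control count in all, the 6 h level was 61.1 times the control level (95% interval from counting error 16.4 to 2429, exact binomial), and edgeR gave an adjusted p of 0.00382; at 3 h the ratio was 18.5 (4.70 to 757) and the test did not pass (edgeR adjusted p = 0.0617). The fitted log2 fold change at 6 h depends on that 1 count: it was 5.77 with both controls, 8.79 without the first and 5.15 without the second.

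Foxh1, the Smad partner of Nodal signalling, had 4.89 and 3.79 CPM in the controls, 4.59 and 6.76 after 3 h, and 10.9 and 9.24 at 6 h, a log2 fold change of 1.20 ± 0.29 (SE) at 6 h (edgeR adjusted p = 0.0172). Without the first or second 6 h library the call was lost (adjusted p 0.104 and 0.0624). Foxp1, a forkhead gene with a stem cell splice form and the highest mean CPM of the family, had 55.3 and 38.0 CPM in the controls, 63.1 and 66.8 after 3 h, and 75.5 and 77.1 at 6 h. All treated libraries lay above both controls, and the log2 fold change was 0.70 ± 0.18 (SE) at 6 h (edgeR adjusted p = 0.0194). It was 0.47 without the second control library, which ended the call (adjusted p 0.0545), as did leaving out the first or second 6 h library (adjusted p 0.0757 and 0.0953).

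Other Fox genes gave no call. Foxm1, which drives genes of mitosis, had 15.7 and 17.2 CPM in control and 13.7 and 14.3 at 6 h, a log2 fold change of -0.23 ± 0.17 (SE, edgeR adjusted p = 0.347). Foxa2, the relative of Foxa1 in endoderm, had 0.445 and 0.244 CPM in the controls and 1.36 and 0.231 after 3 h. At 6 h it had 0.528 and 0.843 CPM (edgeR adjusted p = 0.524). Foxj1, a regulator of motile cilia, had 0.148 and 0.855 CPM in the controls and 0.323 and 1.04 after 3 h. At 6 h it had 0.627 and 0.958 CPM (edgeR adjusted p = 0.589).

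Sox genes moved in both directions. Of 16 tested, 1 was called at 3 h, which was higher, and 5 at 6 h: Sox3, Sox9 and Sox21 higher, Sox7 and Sox15 lower. These are 6.25% and 31.25% of the 16, close to the 4.9% and 29% of all tested genes. Sox9 had no control library at the filter's limit and could hardly be called lower. Sox21, a repressor of the SoxB group that promotes neuronal differentiation, rose at each step. It had 10.5 and 11.2 CPM in the controls, 36.3 and 30.9 after 3 h, and 73.2 and 83.3 at 6 h. The 3 groups were far apart, with log2 fold changes of 1.63 ± 0.16 (SE) at 3 h (edgeR adjusted p = 0.0016), 2.85 ± 0.16 at 6 h (edgeR adjusted p = 4.29e-05) and 1.22 ± 0.15 from 3 h to 6 h (edgeR adjusted p = 0.00835). The last of these was lost without any one of the 3 h or 6 h libraries (edgeR adjusted p from 0.0529 to 0.118), while the calls against control held under every alternative run. Sox21 (chr14:118233232-118237030, minus strand) has 1 exon, and it overlaps an antisense gene, Gm4675, from which its reads cannot be told apart without strand.

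Sox3 and Sox1 are activators of the SoxB group in neural progenitors. Sox3 had 2.37 and 5.74 CPM in the controls, 5.88 and 7.16 after 3 h, and 17.1 and 20.9 at 6 h, which gave a log2 fold change of 2.29 ± 0.36 (SE) at 6 h (edgeR adjusted p = 0.00354). Leaving out the second control library gave 3.00. Sox1, the family member with the highest mean CPM, had 75.1 and 59.0 CPM in the controls, 88.0 and 113 after 3 h, and 57.9 and 70.2 at 6 h, so that the 3 h libraries were the highest. Its log2 fold change was 0.58 ± 0.18 (SE) at 3 h (edgeR adjusted p = 0.0969) and -0.07 ± 0.18 at 6 h (edgeR adjusted p = 0.807).

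Sox7, a SoxF gene of endoderm and vessels, had 48.5 and 33.6 CPM in the controls, 36.0 and 32.1 after 3 h, and 5.05 and 5.63 at 6 h. The control and 3 h libraries overlapped and both 6 h libraries lay far below them. The log2 fold change was -0.28 ± 0.19 (SE) at 3 h (edgeR adjusted p = 0.414), -2.95 ± 0.21 at 6 h (edgeR adjusted p = 0.000104) and -2.67 ± 0.21 from 3 h to 6 h (edgeR adjusted p = 0.00108). Sox17, of the same SoxF group, had 0.519 and 0.733 CPM in the controls and 3.10 and 1.10 after 3 h. At 6 h it had 0.924 and 2.99 CPM, and its log2 fold change of 1.66 ± 0.83 (SE) did not pass (edgeR adjusted p = 0.162). Sox15, a gene of stem cells and muscle precursors, had 63.7 and 66.8 CPM in the controls, 45.2 and 46.4 after 3 h, and 40.7 and 35.3 at 6 h. It fell by 0.78 ± 0.14 (SE, log2) at 6 h (edgeR adjusted p = 0.00487), and without the second 6 h library the adjusted p was 0.0511. The exons of Sox15 overlap those of Mpdu1, so their reads may be shared.

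Sox9, a gene of cartilage and testis, had 0 counts in both controls, 33 and 15 at 3 h, and 74 and 17 at 6 h. It was at least 11.7-fold higher at 6 h (edgeR adjusted p = 0.0199) and at least 10.6-fold higher at 3 h, where the test did not pass (edgeR adjusted p = 0.0618). The 6 h call was lost without the first control library (adjusted p 0.0580) or the first 6 h library (adjusted p 0.0952). In the second 6 h library alone the bound was 4.71-fold, and in the first 17.6-fold. At 3 h it was 15.4-fold in the first library and 6.26-fold in the second. Sox4 and Sox11, of the SoxC group of progenitors, gave no call. Sox4 had 9.48 and 1.83 CPM in the controls, 12.2 and 13.9 after 3 h, and 14.2 and 13.9 at 6 h. Its log2 fold change was 1.23 ± 0.50 (SE) at 6 h (edgeR adjusted p = 0.0962). Sox11 had 17.6 and 13.4 CPM in the controls, 20.7 and 19.0 after 3 h, and 19.3 and 21.1 at 6 h, a log2 fold change of 0.37 ± 0.19 (SE) at 6 h (edgeR adjusted p = 0.171).

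**Figure D3:**
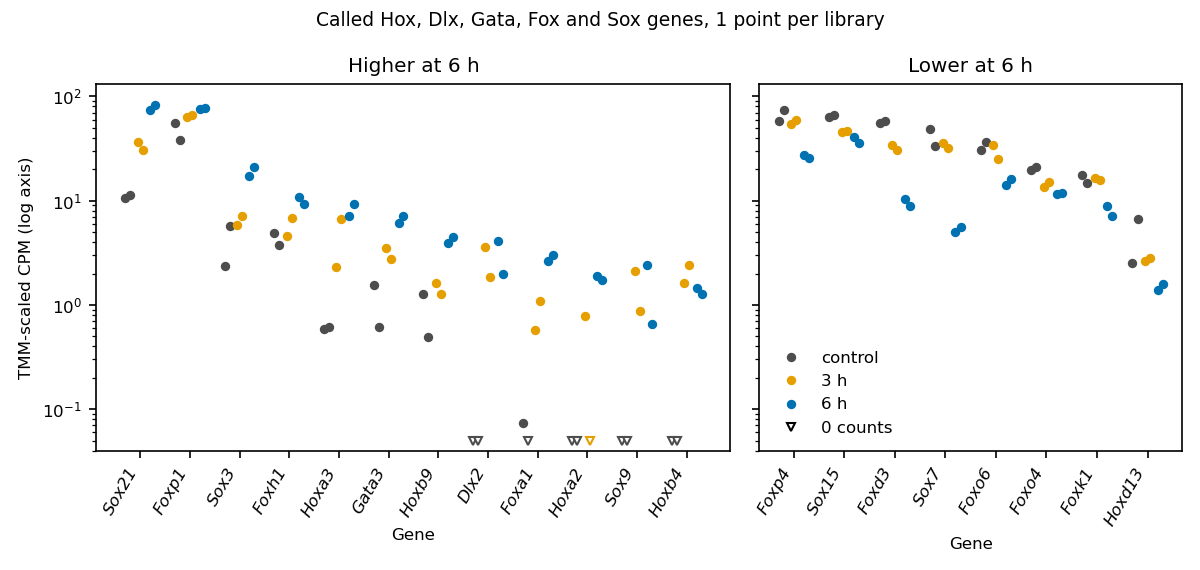
TMM-scaled CPM (log axis) in each library of the 20 genes called at 6 h, with 12 higher genes on the left and 8 lower genes on the right; open triangles mark libraries with 0 counts. Sox21 goes from 10.5 and 11.2 CPM in control to 73.2 and 83.3 at 6 h, and Sox7 falls to 5.05 and 5.63 CPM.

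Some gene models of the set have a feature that the choice by symbol did not use. In GENCODE M21, 16 of the 119 genes (13.4%) have 1 exon, 11 Fox and 5 Sox genes, against 2.82% of the 15197 listed coding genes; the Hox, Dlx, Pax, Lhx and Gata genes have more than 1. Sox1, Sox3, Sox4, Sox11 and Sox21 are the 5 Sox genes, and Foxd3 is among the 11 Fox genes. Exons of 46 of the 119 overlap another gene's exons, 34 on the opposite strand and 17 on the same strand. Besides those named above, Dlx1 overlaps Dlx1as and Gata3 overlaps Gm13256, both antisense. On their own strand Hoxa2 and Hoxa3 overlap Gm28308, Foxp1 overlaps Gm20696 and Gm49348, Gata3 overlaps 9230102O04Rik and Foxd3 overlaps Gm23366. The values of these genes are uncertain in the same way. Dlx2, Hoxb4, Foxa1 and Sox7 overlap no other gene's exons.

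Other genes of the same regulatory systems are given as counts. Beside them stand 4.9% of all tested genes called at 3 h and 29% at 6 h, and all-gene medians of 0.02 and 0.04. These lists were not split by control level as the family genes were. Genes that entered the test through the treated libraries could hardly be called lower. Of 66 tested lineage transcription factors outside the 7 families, 7 were called at 3 h, 6 higher and 1 lower, and 26 at 6 h, 18 higher and 8 lower, with median log2 fold changes of 0.54 and 0.93. Gbx2, a homeobox gene of stem cells and the midbrain border, had the smallest p among them, with 217 and 233 CPM in the controls, 164 and 154 after 3 h, and 49.0 and 54.9 at 6 h, a log2 fold change of -2.11 ± 0.12 (SE) at 6 h (edgeR adjusted p = 4.1e-05). Of 37 tested Polycomb group subunits and H3K27 demethylases, which place or remove the repressive mark, 1 was called at 3 h, which was higher, and 12 at 6 h, 5 higher and 7 lower, with medians of 0.21 and 0.08. Pcgf2, a subunit of Polycomb repressive complex 1, fell from 263 and 354 CPM in control to 167 and 155 at 6 h, a log2 fold change of -0.94 ± 0.15 (SE, edgeR adjusted p = 0.00387). Of 11 tested TALE homeodomain cofactors, which bind DNA together with Hox proteins, 5 were called at 6 h, 3 higher and 2 lower, with a median of 0.78.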

How the data were processed

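RNA was measured in 6 libraries of mouse embryonic stem cells. The values are the counts that the authors deposited, whole numbers for the same 17485 genes in 1 table per library. TRIzol extraction, selection of polyadenylated RNA, a barcode for each sample and pooling are recorded in the labels' protocols. The genome build was mm10, per the submitters' processing notes; the aligner, counting program, strandedness, annotation and any use of molecular identifiers are not given in the sources used here. The series title calls the data bulk while its design text names single-cell sequencing, and each table was read as 1 bulk library. Intervals and the floor of 3 counts cover counting error only, since reads need not be independent molecules.

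The genes and lists were chosen with earlier results of these data known. Groups and replicate numbers came from the sample titles. Genes were kept by edgeR's filterByExpr (at least 0.621 CPM in at least 2 libraries and 15 counts in all; the CPM limit is that of 10 counts at the median library total). They were fitted in edgeR 4.0.16 (R 4.3.3) by the quasi-likelihood test with TMM scaling and 1 mean per group over all 6 libraries, for 3 comparisons. P-values are two-sided and were adjusted by the Benjamini-Hochberg method over the 12755 genes tested, with a threshold of 0.05. SE is the log2 fold change without prior count divided by the square root of the F value. CPM values are not scaled by length, so the highest mean CPM in a family serves to name a gene and ranks no levels per length. Detection was the hypergeometric expectation of genes with at least 3 counts at 9385447 counts. Simulated data were used to test the model. Whether a replicate number marks a shared source is not given in the sources used here, and the numbers were not used as pairs: deviations of same-numbered libraries correlated at 0.09, -0.02 and 0.02 over 12755 genes. Replicate libraries differed beyond counting noise (chi-square per degree of freedom 18.7 to 27.7). Gene models are from GENCODE M21 and promoters from RefSeq.

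Genes named are those called (up to 12 in each direction and comparison), the highest mean CPM in each family, 33 fixed genes, and in each other list the called gene with the smallest p at 6 h; Lhx1, 1 of the fixed genes, is not among the listed genes. Some genes that the rule names are not reported here. Genes named only in counts or as 0 in control were named after their values were seen. Alternatives were other scalings, filters and thresholds, limma-voom (limma 3.58.1), DESeq2 1.42.0, a replicate block, thinning, removal of mitochondrial genes and leaving out each library.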

Additional observations from a re-analysis of the deposited data

Results flagged for a closer look

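The effect at 6 h differed from the effect at 3 h, by the direct edgeR test of 6 h against 3 h, for 5 of the 64 tested genes, where 1.64% of all tested genes differed. Of these, 4 were lower at 6 h than at 3 h, with log2 differences of -2.67 for Sox7, -1.76 for Foxd3, -1.10 for Foxp4 and -1.01 for Foxk1, and Sox21 was higher by 1.22. The calls for Sox7 and Foxd3 held under all 15 alternatives. Those for Foxp4 and Sox21 were lost under 4 of 15 and that for Foxk1 under 7 of 15.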

How the results depend on the processing

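Of 449 alternative values for single called genes, 391 kept their call, 58 lost it and 0 reversed. DESeq2 gave no adjusted p for Hoxb4 at 3 h and so did not call it, and that case is not among the 449. The main counts of called genes were 5 at 3 h, 20 at 6 h and 5 from 3 h to 6 h. With library totals alone 10 genes were called at 3 h, and with limma-voom 3. Without the filter on low counts 19, 34 and 9 of 119 were called, in the same order of comparisons, the main calls among them (16%, 28.6% and 7.56%, where 10.4%, 26.2% and 6.08% of all 17485 genes were). DESeq2 called 8 from 3 h to 6 h. At an adjusted p under 0.1, 11 passed at 3 h and 32 at 6 h. Leaving out each library in turn gave 1 to 11 calls at 3 h, 12 to 27 at 6 h and 2 to 7 from 3 h to 6 h; a group left with 1 library was assumed to vary like the others, and the lowest counts came without a library of the groups compared. At 3 h there was 1 call without the second 3 h library and 2 without the first, 3 without either 6 h library and 11 without the first control library, and at 6 h there were 13 and 12 without the first and second 6 h library. From 3 h to 6 h, 2 remained in number without any 3 h or 6 h library. The cause of these shifts was not tested.

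With the replicate number as a block, 5, 20 and 4 genes were called, and no pairing by number was seen. Hoxd13 lost its 6 h call under 9 of 15 alternatives, the block among them (edgeR adjusted p = 0.0547). The 3 h calls of Dlx2 and Hoxa3 and the 6 h call of Sox9 were lost with limma-voom.

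The gain in detected genes, 17.8 at 3 h and 26.4 at 6 h, was 13.7 and 17.8 at a limit of 10 counts, 24 and 39.5 as deposited and 15.1 and 21.7 at equal TMM effective size. It was 30.7 at 6 h with a limit of 1 count and 24.6 at equal depth outside the mitochondrial genes. Leaving out 1 library gave 16.7 to 18.9 at 3 h and 25.2 to 27.7 at 6 h. Low counts kept 55 genes out of the filtered test.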
